A study of Homo sapiens with 6 samples.

Results

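The SLAM family is a set of 9 immunoglobulin-type cell-surface genes, and it was examined here in human embryonic stem cells after knockdown of ALR, the alpha satellite RNA made from repeats at human centromeres. The members were taken by name: CD48, CD244, SLAMF1, LY9, CD84, SLAMF6, SLAMF7, SLAMF8 and SLAMF9. CD48 was abundant and lower in the knockdown libraries, and the other 8 genes were at or near 0 in both groups. All 9 had a row among the 53719 gene rows of the count table. The cells were H9, an established human embryonic stem cell line, grown in RSeT, a commercial medium for a naive-type state. They carried no labelled genetic change. One group of 3 libraries came from cells transfected with a gapmer against ALR, and the other group of 3 came from cells transfected with a control gapmer. RNA of both groups was taken 48 h after transfection. The level of ALR itself was not analysed here, so the labels were not checked against it. Gapmers are antisense oligonucleotides whose DNA middle lets the enzyme RNase H cleave a matching RNA. The libraries of each group carry the letters a, b and c, and values below follow that order. No label says that they came from separate cultures, so p-values measure only the spread between these libraries, which may be technical.

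SLAM family proteins are receptors best known from blood cells, where most of them bind a copy of themselves on a neighbouring cell. CD244 is the exception that binds CD48. CD48 in turn has no cytoplasmic tail and is held in the membrane by a glycosylphosphatidylinositol (GPI) anchor, and it also binds CD2 on T cells. Several of the other members signal through tyrosine motifs in their tails, which recruit the small adaptors SAP (gene SH2D1A) and EAT-2 (gene SH2D1B) and, through SAP, the kinase FYN.

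All 9 genes lie on chromosome 1 (GRCh38). A cluster of 7, from SLAMF6 through CD84, SLAMF1, CD48, SLAMF7 and LY9 to CD244, spans 377.8 kb (chr1:160485030-160862855). SLAMF9 lies 724.5 kb and SLAMF8 841.5 kb from CD48, on the SLAMF6 side. CD48 itself (ENSG00000117091.9) covers chr1:160678746-160711851 on the reverse strand and has 3274 exonic bases in GENCODE 29. Its nearest relatives are SLAMF7 at 27.2 kb and SLAMF1 at 31.5 kb.

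To show the DNA in front of the gene with reads and of 2 relatives with few, the sequence from 250 to 31 bases before the RefSeq start site (GRCh38.p14) is given for CD48, for CD244, the receptor of CD48, and for SLAMF6, the member with the next highest level. Capitals mark CG dinucleotides, and each sequence reads 5′ to 3′ on the gene's own strand, which is the reverse strand for all of them. The windows are chr1:160711853-160712072, chr1:160862918-160863137 and chr1:160523286-160523505.
CD48: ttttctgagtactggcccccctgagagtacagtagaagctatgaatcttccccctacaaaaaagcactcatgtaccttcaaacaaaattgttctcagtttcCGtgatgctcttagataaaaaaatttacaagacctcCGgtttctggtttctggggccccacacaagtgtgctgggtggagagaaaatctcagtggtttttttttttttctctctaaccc
CD244: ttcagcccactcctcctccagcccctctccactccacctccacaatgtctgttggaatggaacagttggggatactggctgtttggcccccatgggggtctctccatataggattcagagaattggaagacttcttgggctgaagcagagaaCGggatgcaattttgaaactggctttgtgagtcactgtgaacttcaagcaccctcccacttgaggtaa
SLAMF6: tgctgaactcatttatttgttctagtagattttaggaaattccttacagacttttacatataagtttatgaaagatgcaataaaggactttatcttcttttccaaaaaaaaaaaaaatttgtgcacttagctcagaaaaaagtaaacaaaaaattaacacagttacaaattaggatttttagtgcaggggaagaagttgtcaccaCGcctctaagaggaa

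The CD48 window held 2 CG dinucleotides in 220 bases at a GC content of 42.3%, and the windows of CD244 and SLAMF6 held 1 each, at 51.4% and 30.0%. Over all 35116 RefSeq windows of this length, the median was 9 CG dinucleotides and 57.7% GC, and 25.8% of them held 2 or fewer. RefSeq windows were at hand for 6 of the 9 members, and the other windows held 4 (SLAMF1), 4 (SLAMF8) and 6 (SLAMF9) CG dinucleotides. All 6 were thus below the median of all windows, and CD48, the gene with reads, lay within the range of the 5 nearly without. None of the 6 held the letters TATAAA (present in 8.08% of all windows, either strand) or the octamer ATGCAAAT (1.49%). Which start site these cells use was not measured.

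The libraries held 25087629 to 36576752 counts. Knockdown library a stood apart from the other 5: it had counts in 29678 gene rows, against 25898 to 26788, and after thinning to the smallest total it still had 29441, against 25537 to 26193. On the first principal component (36.2% of the variance) it lay at -53.4, with the others between 4.82 and 15.4. Stem cell markers were high in every library, with LIN28A at 1541 to 1757 CPM (read counts divided by the TMM-scaled library size) as group means and NANOG at 181 to 194. Markers of the naive and the primed state were both present and both mixed. Of the 6 naive markers, TFCP2L1 (27.0 to 28.7 CPM as group means), DPPA3 (18.8 to 20.3) and KLF4 (17.3 to 17.9) had the highest levels, DNMT3L and DPPA5 had 23 to 85 counts per library, and KLF17 had 1 to 10. Of the primed markers, SFRP2 had 75.2 to 78.6 CPM, OTX2 32.4 to 32.6, ZIC2 11.5 to 11.6 and DUSP6 9.10 to 10.5, THY1 was listed at 0 and CD24 had no row. Some genes were listed at 0 in all 6 libraries although stem cells use them, among them SOX2, a core pluripotency factor annotated within another gene. A value of 0 is therefore given below only as the listed count.

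CD48 was the one member with substantial expression. Its counts were 2933, 3371 and 2820 after ALR knockdown, and 4623, 4993 and 5695 after the control gapmer. Per kilobase of exons it ran from 30.9 to 49.7 CPM per kb across the libraries (mean 40.5). That mean was above 94.7% of the 15934 tested genes that had a length, whose median was 4.35. CD48 alone held 98.2% to 99.6% of all counts of the family in each library. Of its exonic bases, 29.8% (976) are shared with AL121985.1, an antisense gene listed at 0 in all 6 libraries; the strand setting of the counting is not given in the sources used here, so reads of the pair cannot be told apart.

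The other 8 members were at or near 0. Their highest single count was 20, and 16 of their 48 values (8 genes in 6 libraries) were 0. Together they had 54, 17 and 24 counts after ALR knockdown, and 19, 23 and 35 after the control gapmer. Their median level per length was 0.0108 CPM per kb. At the smallest library, a count of 0 allows up to 0.119 CPM (3 counts); such limits, like the intervals below, cover counting error only.

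**Figure D1:**
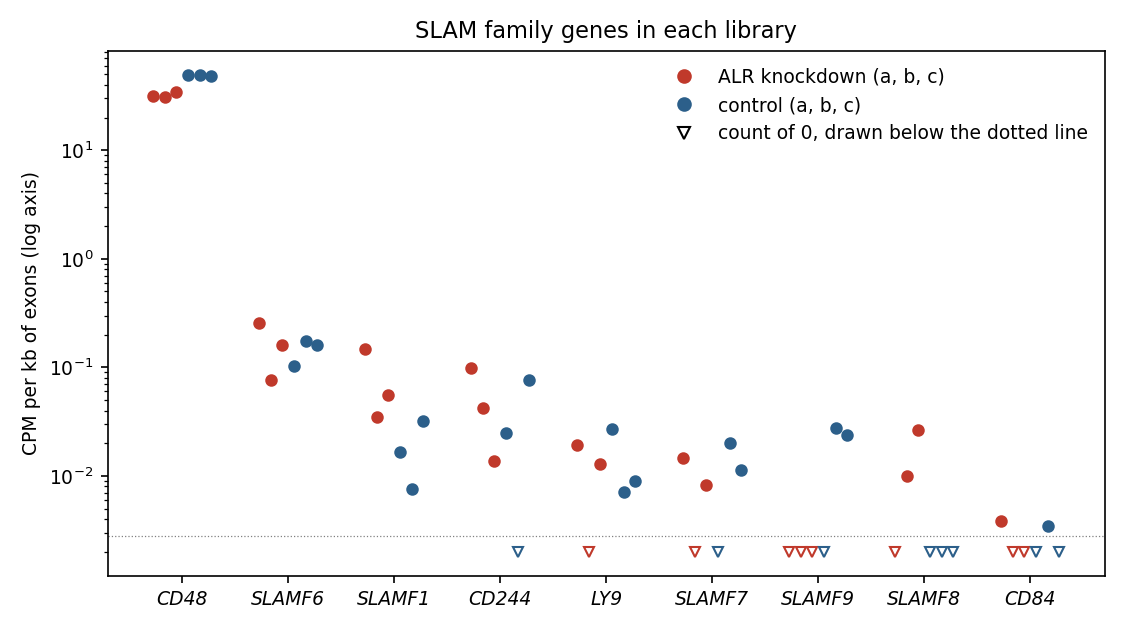
Level of each SLAM family gene per kilobase of exons in each of the 6 libraries, on a log axis; each point is 1 library, and open triangles below the dotted line are counts of 0. CD48 lies between 30.9 and 49.7 CPM per kb, while no other member exceeds 0.257.

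SLAMF6, a receptor of T, B and natural killer cells, had the highest level after CD48. Its counts were 20, 7 and 11 after ALR knockdown, and 8, 15 and 16 after the control gapmer. The groups overlapped, and knockdown libraries held both the highest and the lowest value. Its mean of 0.155 CPM per kb was 261.4 times below that of CD48.

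SLAMF1, the founding member and a receptor for measles virus, had 18, 5 and 6 counts in knockdown and 2, 1 and 5 in control libraries. CD244 had 8, 4 and 1 against 2, 0 and 8, and LY9, a receptor of T and B cells, had 5, 0 and 3 against 7, 2 and 3. Of these, only SLAMF1 had groups that did not overlap. Among tested genes, to which SLAMF1 does not belong, 18.9% had groups that did not overlap. The mean of SLAMF1 per length, 0.0493 CPM per kb, did not stand apart from that of CD244 (0.0427). The libraries of each ranged over more than this difference.

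The 4 lowest members gave hardly any reads. SLAMF7, a receptor of plasma cells and natural killer cells, had 2, 0 and 1 counts in knockdown and 0, 3 and 2 in control libraries. CD84 had 1 count in knockdown library a and 1 in control library b. SLAMF8 had 3 counts in all, in knockdown libraries b and c, and SLAMF9 had 2, in control libraries b and c. Of the SLAMF8 exonic bases, 69.0% are shared with the overlapping gene SNHG28 on the other strand, which had 7 to 27 counts. The remaining 7 members other than CD48 and SLAMF8 share no exonic base with another gene of GENCODE 29. At this depth SLAMF7, SLAMF9, CD84 and SLAMF8 could not be ranked, and no difference between the groups could be seen in them.

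The level order was thus CD48, then SLAMF6, then SLAMF1 and CD244, then LY9 and the rest. Only the step from CD48 to SLAMF6 was clear in all 6 libraries: the lowest CD48 value was 30.9 and the highest SLAMF6 value 0.257 CPM per kb. SLAMF6 and SLAMF1 overlapped in their ranges (0.0764 to 0.257 and 0.00754 to 0.149), and so did each later pair of neighbours in the order.

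Blood cell markers gave the scale of these low values. The leukocyte list of 18 genes summed to 73.9 to 84.5 CPM after knockdown and 79.6 to 85.9 in control libraries. Most of that was LCP1, an actin-bundling protein found also outside blood, with 63.7 and 69.6 CPM as group means. None of the 18 was at 0 in all libraries, and 10 were tested. After LCP1, the highest was CORO1A, an actin-binding protein, with 93 to 128 counts, followed by IKZF1 (26 to 74), SPI1 (30 to 54), CSF1R (34 to 63), ITGAM (25 to 64), ITGB2 (26 to 50) and KLRD1 (16 to 50). The T cell gene CD3E had 0 to 5 counts, the monocyte gene CD14 0 to 5 and the B cell gene CD79A 2 to 9. PTPRC (CD45), carried by nearly all white blood cells, had 40 counts in knockdown library a and 1 to 5 in the other 5. CD34, a marker of blood-forming progenitors, had 15 counts in that library and 1 to 5 elsewhere. SPI1 was at its lowest in knockdown library a, with 30 counts against 41 to 54 elsewhere. Apart from LCP1, no leukocyte marker of the list passed 128 counts in any library, beside CD48 at 2820 or more; the part of such cells in the CD48 level was not tested.

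The family was selected on measured values of these libraries. Which values were used is not stated, and the difference of CD48 between knockdown and control libraries is taken to be among them, so it is given as a description and supports nothing further. CD48 had 103.4, 101.0 and 111.6 CPM after ALR knockdown. After the control gapmer it had 162.6, 160.8 and 156.8 CPM. All 3 knockdown values were below all 3 control values, and the gap between the groups, 45.2 CPM, was larger than the range within the knockdown (10.6) or the control group (5.87). The 95% Wilson intervals did not meet either: the highest upper bound in knockdown was 115.8 CPM and the lowest lower bound in control 152.7. Means were 105.3 ± 5.55 and 160.1 ± 3.0 CPM (SD, n = 3 each). The log2 fold change was -0.60 ± 0.06 (SE), a level 34.2% lower. Fewer cells with CD48 RNA and less of it per cell cannot be told apart in bulk RNA.

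In edgeR's quasi-likelihood test CD48 had an adjusted p of 0.00157, which is likewise given as a description. Of the 9 members, CD48 was the only one past the adjusted threshold of 0.05, among 155 of 19721 tested genes (0.786%), of which 128 were lower (0.649%). The median log2 fold change of those 128 was -0.55, and CD48 ranked 45 among them by size. By level it was high among the 155, of which 23 had a higher mean CPM. Under 15 other settings (scalings, tests, filters, thinning, replicate block, each library left out) the CD48 log2 fold change ran from -0.67 to -0.58 and the highest adjusted p was 0.0363, reached without control library a. Without knockdown library a, the library that stood apart, it was -0.59.

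**Figure D2:**
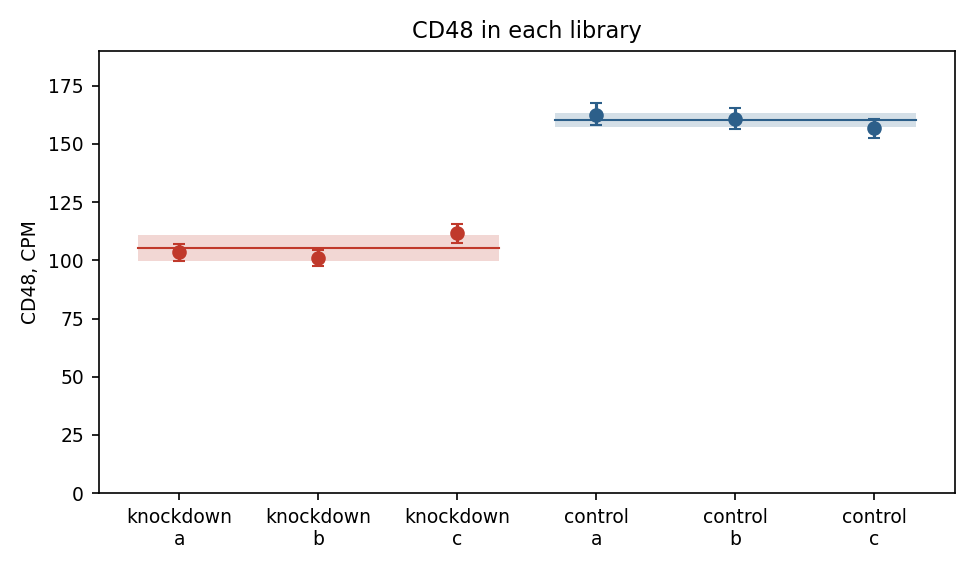
CD48 level (CPM, axis from 0) in each library; points carry 95% Wilson intervals, and lines with bands are the group mean ± SD (n = 3). Knockdown libraries lie at 101.0 to 111.6 CPM and control libraries at 156.8 to 162.6.

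SLAMF6 was the only other member with enough counts to be fitted, so 2 of the 9 were tested. It had 0.450 ± 0.248 CPM after knockdown and 0.402 ± 0.106 in controls (SD, n = 3 each). Its log2 fold change was 0.14 ± 0.51 (SE). That standard error allows a change of the size seen in CD48 in either direction. Among 14 other settings, its sign was negative in 3: limma-voom (-0.02), without knockdown library a (-0.37) and without control library a (-0.04).

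SLAMF1 had too few counts for the filter. Its CPM values were 0.635, 0.150 and 0.237 after ALR knockdown, and 0.0704, 0.0322 and 0.138 after the control gapmer. The knockdown values were all higher, but knockdown library b (0.150) and control library c (0.138) were close, on 5 counts each. With no filter, edgeR gave a log2 fold change of 2.0 ± 0.93 (SE). Part of the size came from knockdown library a: the knockdown mean was 0.341 CPM with it and 0.194 without it, against 0.0801 in control libraries. Groups that did not overlap were found in 18.9% of all tested genes (9.55% higher, 9.37% lower in knockdown). CD48 and the genes of the lists are read against that share. SLAMF1 was not among the tested genes, and the share among genes with so few counts was not computed. The same library a held the high count of PTPRC, 40, and the highest of IKZF1, 74. It also held the highest count of the fibroblast marker DCN, 11. By CPM, knockdown library a was also the highest for ITGAM (2.26), CSF1R (2.22), ITGB2 (1.76), KLRD1 (1.52) and MS4A1 (0.282). The remaining leukocyte markers of the list were not at their highest in it. Among them, SPI1 was at its lowest there, with 30 counts against 41 to 54 elsewhere. The part of blood cells in the SLAMF1 values was not tested.

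**Figure D3:**
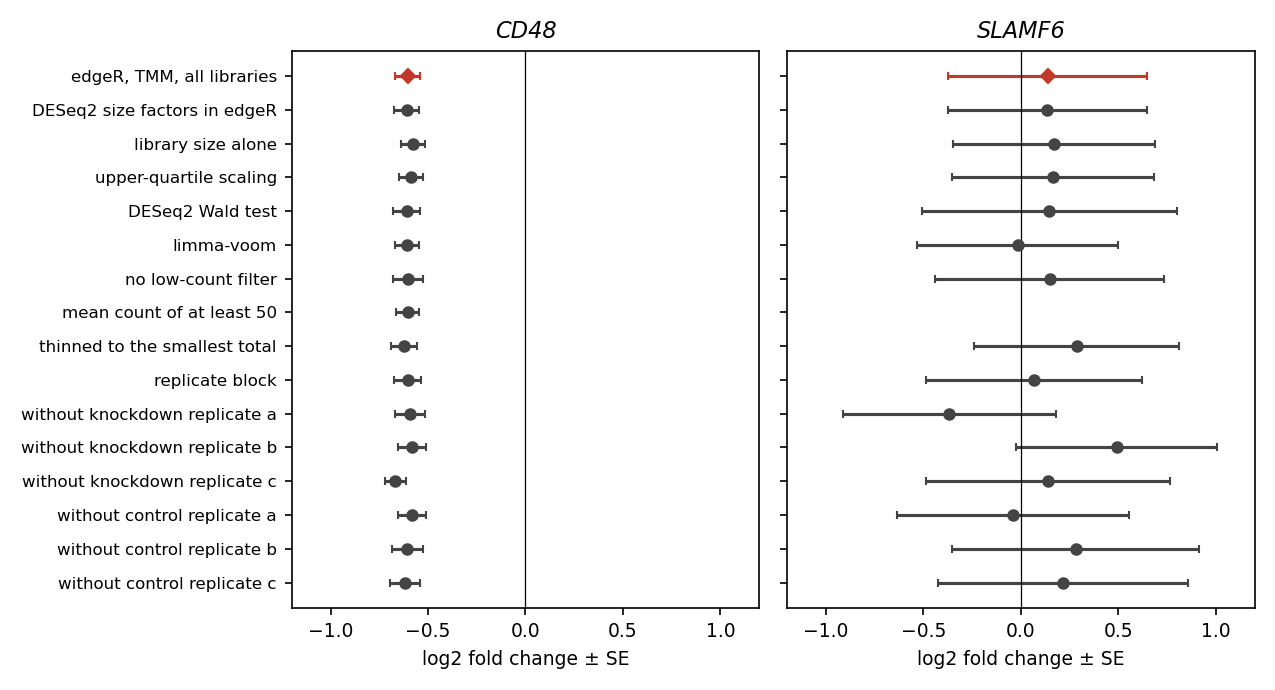
Log2 fold change ± SE (knockdown minus control) of CD48 and SLAMF6 with edgeR and TMM scaling on all libraries (diamonds) and each alternative (circles); SLAMF6 has no value with a mean count of at least 50. CD48 stays between -0.67 and -0.58, while SLAMF6 ranges from -0.37 to 0.49.

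The genes that surround CD48 were compared next. Of 54 other annotated genes within 500 kb of its ends, 38 had a row and 22 were tested, SLAMF6 among them, with 0 past the adjusted threshold in edgeR's test, 0 in DESeq2 or limma-voom, and 2 at an unadjusted p under 0.05 in edgeR's test. Over all 19721 tested genes, 2811 (14.3%) had an unadjusted p under 0.05, and the counts at that threshold in this and the following lists are read against that share. The 22 had a median log2 fold change of 0.05, against 0.02 over all tested genes. Of them, 17 were above 0, and the share of all tested genes above 0 was not computed. The groups did not overlap for 1 neighbour lower and 3 higher in knockdown (18.9% of all tested genes did not). COPA, a subunit of the coat of Golgi vesicles, lay 335.3 kb away at 240.1 CPM and had a log2 fold change of 0.04 ± 0.06 (SE). F11R, a tight-junction adhesion protein with an immunoglobulin fold, lay 283.4 kb away on the other side at 235.8 CPM and had 0.03 ± 0.07. The nearest tested gene with over 100 CPM was VANGL2, a planar cell polarity protein, 250.1 kb away, at 0.10 ± 0.07 (chosen after its values were seen). A further gene chosen in that way was PVRL4 (NECTIN4), an adhesion protein, 359.1 kb away, with 34, 15 and 19 counts in knockdown and 56, 41 and 66 in control libraries. Its log2 fold change was -1.10 ± 0.37 (edgeR adjusted p = 0.205), so it did not pass. Of the neighbours, 7 were listed at 0 in all libraries.

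**Figure D4:**
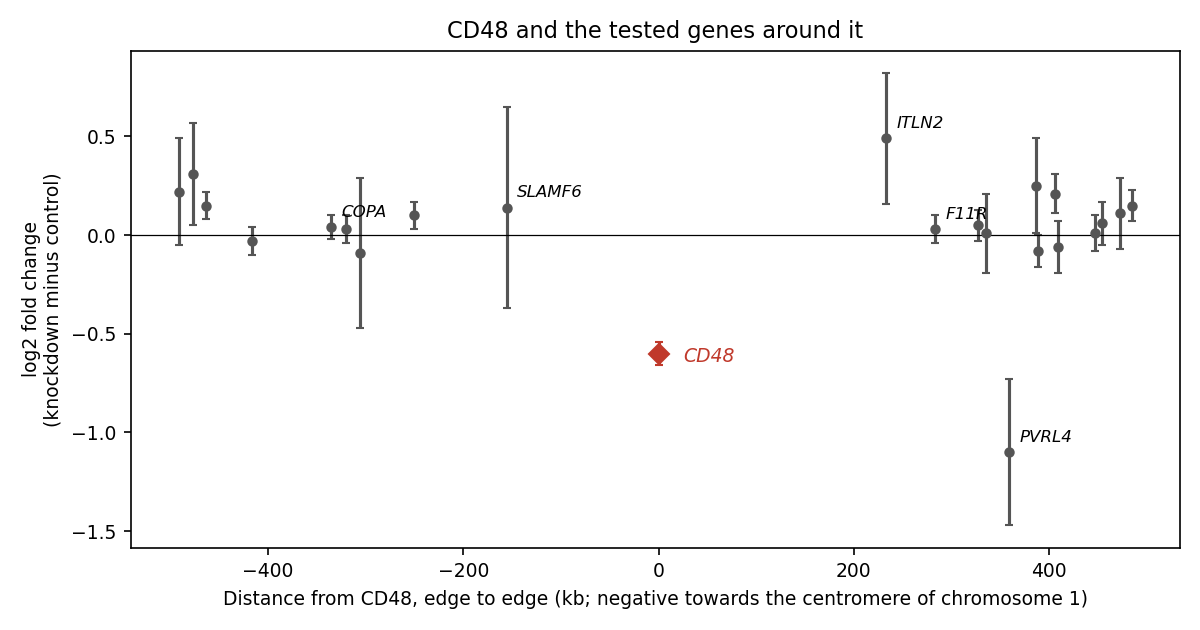
Log2 fold change ± SE of CD48 (diamond) and of the 22 tested genes within 500 kb (circles) against their distance from CD48. CD48 lies at -0.60, and the abundant neighbours COPA and F11R lie at 0.04 and 0.03.

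Among the signalling partners of the family, the SAP-type adaptors had few or no counts and the kinases and phosphatases had many more. SH2D1A (SAP) was listed at 0 in all 6 libraries, and SH2D1B (EAT-2) had 0 to 5 counts. The kinase FYN had 151.1 CPM after knockdown and 166.4 in control libraries as group means (log2 fold change -0.14 ± 0.08, SE). Of the 19 genes of the list of adaptors and signalling proteins, 17 were tested: 0 passed the adjusted threshold, in edgeR's test over all genes as in DESeq2 and limma-voom, and 4 had an unadjusted p under 0.05 in edgeR's test. The median log2 fold change was 0.04. PTPN11 (SHP-2), a phosphatase recruited by many receptors, had 286.2 ± 25.2 CPM after knockdown and 274.1 ± 16.1 in controls (SD, n = 3 each). CBL, a ubiquitin ligase that ends receptor signals, had 264.6 ± 25.7 against 245.8 ± 20.1. Both differences were smaller than the spread within the knockdown group. INPP5D (SHIP-1), a lipid phosphatase of blood cells recruited to tyrosine motifs, was chosen after its values were seen: it had 21.9, 20.3 and 21.7 CPM after knockdown and 27.3, 24.8 and 25.2 in control libraries. All 3 knockdown values were lower, with log2 fold change -0.28 ± 0.08 (edgeR adjusted p = 0.137), which did not pass. The groups did not overlap either for 3 genes that were higher in knockdown: the kinases LYN (log2 fold change 0.27 ± 0.09, edgeR adjusted p = 0.190) and CSK (0.21 ± 0.08, 0.259) and the adaptor DOK1 (0.32 ± 0.21, 0.535). Over all tested genes, 18.9% had groups that did not overlap.

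The counter-receptors of CD48 were nearly without reads. CD2 had 5 counts in knockdown library a, 3 in control library b and 0 in the other 4 libraries, and CD244 is given above. CD58, a relative of CD48 that also binds CD2, had 13.2 ± 1.15 CPM after knockdown and 12.2 ± 0.822 in controls (SD, n = 3 each). Per length CD58 stood at 7.12 CPM per kb, below the 40.5 of CD48. Of the list of 15 CD2-side and GPI-anchored relatives, 14 had a row and 12 were tested, with 0 past the adjusted threshold in edgeR's test, 5 at an unadjusted p under 0.05 (14.3% of all tested genes were) and a median log2 fold change of 0.00. The groups did not overlap for 4 (18.9% of all tested genes did not): NT5E, PRNP and CD55 were lower in knockdown and ALPL was higher. DESeq2's Wald test called 1 of them, the GPI-anchored alkaline phosphatase ALPL (log2 fold change 0.27, adjusted p = 0.0309; 0.109 in edgeR), and limma-voom called 0. The most abundant were GPC4, a GPI-anchored proteoglycan, with 567.3 ± 3.0 against 566.9 ± 5.32 CPM, and TDGF1, a GPI-anchored Nodal co-receptor, with 549.3 ± 36.1 against 548.0 ± 13.6. Both differences lay within the spread of the libraries. The lowest fold change of the list was that of NT5E (CD73), a GPI-anchored nucleotidase chosen after its values were seen, with 24, 19 and 27 counts in knockdown and 45, 52 and 70 in control libraries (log2 fold change -1.08 ± 0.31, SE; edgeR adjusted p = 0.145).

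The enzymes that build and attach the GPI anchor of CD48 were expressed with little difference between the groups. Of 26 genes, 21 were tested and 4 were listed at 0 in all libraries. In edgeR's test 0 passed the adjusted threshold, as in DESeq2 and limma-voom, and 2 had an unadjusted p under 0.05, with log2 fold changes from -0.30 to 0.28 and a median of -0.01. PGAP1, which removes a lipid from the finished anchor, had 83.5 ± 0.917 CPM after knockdown and 90.8 ± 2.12 in controls (SD, n = 3 each). PIGG, which adds a side group to the anchor, had 70.3 ± 5.49 against 70.1 ± 2.55. The groups did not overlap for 3 genes lower in knockdown and for 1 higher (18.9% of all tested genes did not). The lower ones were PGAP1 (log2 fold change -0.12 ± 0.06, edgeR adjusted p = 0.379), PIGA (-0.07 ± 0.07, 0.702) and PIGB (-0.27 ± 0.11, 0.277). The higher one was PIGX (0.28 ± 0.11, 0.268). PIGB and PIGX were the 2 with an unadjusted p under 0.05.

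Immune recognition genes outside the SLAM family were also read. Of 20, 16 were tested, 0 passed the adjusted threshold in edgeR's test, DESeq2 or limma-voom, 6 had an unadjusted p under 0.05 (14.3% of all tested genes did), and the median log2 fold change was 0.16, with 10 genes above 0 and 6 below. CD276 (B7-H3), an immune checkpoint ligand, had 136.0 ± 14.0 CPM after knockdown and 116.5 ± 4.61 in controls (SD, n = 3 each). Its log2 fold change was 0.22 ± 0.08 (edgeR adjusted p = 0.227). NECTIN2, an adhesion protein that natural killer cells recognise, had 103.9 ± 9.10 against 87.6 ± 4.40 (0.25 ± 0.08; edgeR adjusted p = 0.168). In both genes all 3 knockdown values were above all 3 control values, the opposite order from CD48, and neither passed. In the whole list, groups did not overlap for 5 genes higher in knockdown (also CD80, CD40 and HLA-E) and for 3 lower (ICOSLG, CD200 and ICAM1). Over all tested genes the shares were 9.55% higher and 9.37% lower. Per length CD48 at 40.5 CPM per kb was above both, CD276 having 22.8 and NECTIN2 25.6.

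**Figure D5:**
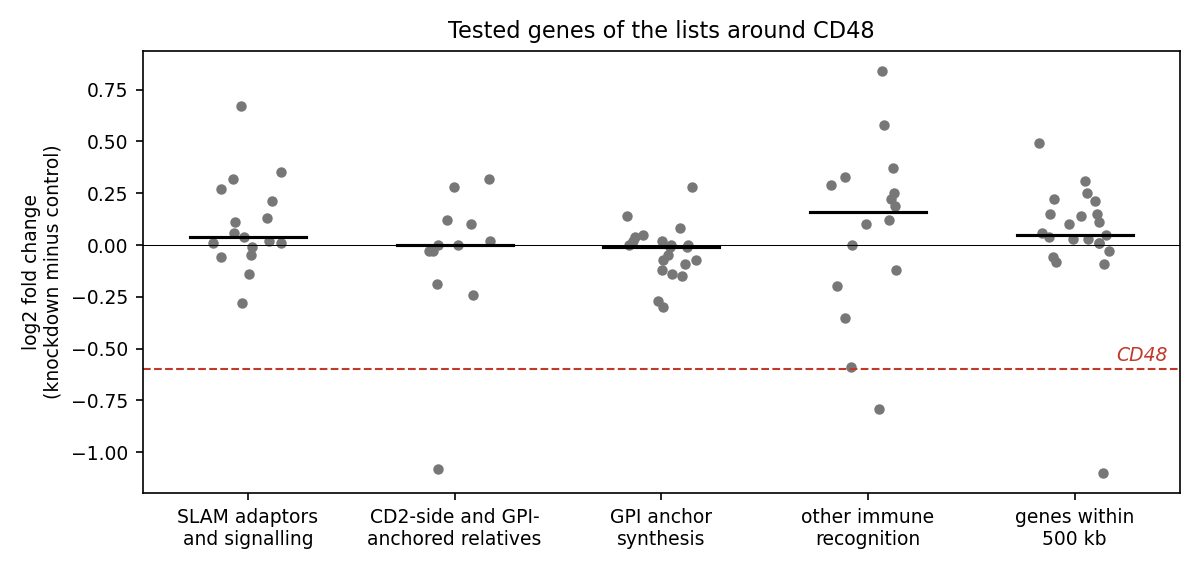
Log2 fold change (knockdown minus control) of each tested gene in the 5 lists; bars are list medians and the dashed line is CD48 at -0.60. The medians lie between -0.01 and 0.16.

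The genes whose level across the 6 libraries was most like that of CD48 were found by Pearson correlation of log2 CPM among 15139 other genes with a mean count of at least 50. The 5 highest were TRPC6, a calcium channel (r = 0.9994), RP11-572M11.4 (0.9992), AP002954.4 (0.9990), RP11-321C1.1 (0.9984) and PDGFC, a growth factor (0.9981). TRPC6 had 849.6, 835.7 and 899.4 CPM after ALR knockdown, and 1261.1, 1244.1 and 1237.4 after the control gapmer. As in CD48, knockdown library c was the highest of its group and control library c the lowest. PDGFC had 21.2, 18.7 and 24.1 CPM after knockdown and 60.1, 55.5 and 56.2 in control libraries. The log2 fold changes of the 5 were -0.53 ± 0.06, -0.60 ± 0.07, -0.51 ± 0.07, -0.57 ± 0.07 and -1.43 ± 0.09 (SE), in the order given. The 3 clone-named genes are not described further. The 6 points share the split into 2 groups of 3, and the ranking is a description.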

How the data were processed

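RNA-seq counts of 3 ALR knockdown and 3 control libraries of H9 cells were used, with 1 column per library. The authors deposited raw counts per gene symbol; the values were whole numbers with differing column totals. Per the submitters' processing notes, Trimmomatic 0.39, STAR 2.7.8a, featureCounts and Subread 2.14.2 were used with build hg38. Annotation, strand setting and the treatment of reads that map to several places or overlap several genes are not given in the sources used here. Libraries were made with a directional kit from total RNA, per the labels' protocols.

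Of 53719 rows, 32743 were matched to GENCODE 29 (GRCh38) by symbol or older symbol for positions and exonic lengths, which may differ from those of the annotation used for counting. Differential expression used edgeR 4.0.16 (R 4.3.3): filterByExpr at its defaults, TMM scaling, a quasi-likelihood fit with group as its only term, two-sided p-values adjusted by the Benjamini-Hochberg method over 19721 tested genes. CPM uses TMM-scaled library sizes, and CPM per kb divides this by exonic length. The standard error is the log2 fold change divided by the square root of the F statistic. Wilson intervals (SciPy 1.17.1) are at 95%. Alternatives included DESeq2 1.42.0 and limma-voom (limma 3.58.1), other scalings and filters, thinning, the letter as a block and leaving out each library. In simulated counts, 95 of 198 genes changed by 0.5 on the log2 scale were recovered among 19415 tested, with 11 false calls. With changes of 1.0, 147 of 197 were recovered with 10 false calls, and with no change there were 0 false calls. The changed genes were drawn at random over all levels, so these shares are not specific to the level of CD48 or of the other members.

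The members and the lists were chosen with earlier results of these data known. All members were named. From each list, genes past the adjusted threshold or otherwise the 2 with the highest mean CPM were named, and the 5 genes most like CD48 by correlation. Outside the neighbours and markers, list genes whose groups did not overlap were named as well. INPP5D, NT5E, VANGL2 and PVRL4 were chosen after their values were seen. The 2 SLAM adaptors, FYN, CD2 and CD58 were named for their role. Marker lists covered leukocytes, blood-forming progenitors, embryonic stem cells, fibroblasts and the naive and primed states.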

Additional observations from a re-analysis of the deposited data

How the results depend on the processing

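The CD48 log2 fold change kept its sign and stayed past the adjusted threshold in all 15 alternatives, from -0.67 (without knockdown library c) to -0.58. These fits reuse the libraries on which the family was selected, so they describe the dependence on processing and lend the difference no further weight. The count of changed genes over the whole table, 155, was 536 with DESeq2's Wald test, 1064 with no low-count filter and 393 with the replicate block, and from 26 (without control library a) to 1309 (without knockdown library c) when each library was left out; the cause was not tested. With fewer or more genes kept, the number of family members that could be fitted went from 2 to 1 (mean count of at least 50) or 9 (no low-count filter). With the replicate block CD48 was at -0.605 and no call on a member changed. Deviations from the group means were hardly correlated between libraries of the same letter (r = 1.231e-05 for a, 0.1156 for b, -0.02509 for c). The labels do not say whether the letter marks a pairing, and these values cannot settle it. Depth limits the other 8 members, whose highest count was 20.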

Other observations

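Of the 7 blood-forming progenitor markers, 6 had a row and 3 were tested, with 0 past the adjusted threshold in edgeR's test and 0 at an unadjusted p under 0.05. They summed to 19.2 to 33.4 CPM in knockdown and 21.9 to 24.2 in control libraries. RUNX1, a transcription factor of blood formation, made up most of that, with 759, 462 and 387 counts in knockdown and 450, 529 and 648 in control libraries. Of the 6 fibroblast markers, 3 were tested and 0 passed in edgeR's test, with 2 at an unadjusted p under 0.05; COL1A2, a fibrillar collagen, had 67.0 and 77.0 CPM as knockdown and control means (log2 fold change -0.20), COL1A1, its partner chain, had 22.4 and 21.0 (0.09), POSTN, a matrix protein, had 1.03 and 0.535 (0.94, groups not overlapping), and LUM, a proteoglycan of connective tissue, had 0 or 1 count per library. Of the 10 tested leukocyte markers, 0 passed in edgeR's test and 0 had an unadjusted p under 0.05. The tested markers of the stem cell, naive and primed lists (7, 5 and 4 genes) also had 0 past the threshold in edgeR's test, with 2, 1 and 0 at an unadjusted p under 0.05. In DESeq2's Wald test 1 gene of these marker lists passed, the pluripotency factor POU5F1 (log2 fold change 0.41, adjusted p = 0.005; 0.0948 in edgeR), and limma-voom called 0 in each list.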
